A study of Homo sapiens with 6 samples.

Results

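The 8 genes of the condensin complexes were examined together with TOP2A and MKI67 in SW480, a cell line long established from a human colorectal adenocarcinoma, after treatment with the mitochondrial probe MPM-1. The 10 genes were chosen by symbol with earlier results of these data known, and all 10 were found among the 12982 genes of the deposited table. Shares of all genes set beside theirs are therefore a description and not a test. RNA was sequenced from 3 libraries of wild-type cells given MPM-1, which the labels also name WT4, and from 3 libraries of the same cells given DMSO, the solvent. Both treatments lasted 24 h, and the dose of MPM-1 in this experiment is not given in the sources used here. The cultures behind the 3 libraries of a treatment are not described, so p-values measure the spread between these libraries, which may be technical.

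Condensins are ring-shaped ATPases that extrude loops of DNA and so shorten and stiffen chromosomes for mitosis. Condensin I and condensin II share the SMC2 and SMC4 core, and each adds a kleisin that closes the ring and a pair of HEAT-repeat subunits. In condensin I these are NCAPH, NCAPD2 and NCAPG, and in condensin II they are NCAPH2, NCAPD3 and NCAPG2. Condensin II resides in the nucleus throughout the cell cycle, whereas condensin I reaches chromosomes after the nuclear envelope breaks down. Topoisomerase IIα (TOP2A) untangles sister DNA on the same chromosome axis, and Ki-67 (MKI67) coats the chromosome surface and keeps mitotic chromosomes apart from each other.

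After MPM-1, all 10 genes were lower at an adjusted p-value under 0.01 (edgeR), as were 20.7% of all genes, and they stood at between 22.2% (MKI67) and 53.8% (NCAPH2) of their DMSO level. The median log2 fold change was -1.60 for the 3 subunits particular to condensin I, -1.31 for the shared core and -0.92 for the 3 subunits particular to condensin II. Together the 10 genes took 0.107% ± 0.00342 of a library's counts in DMSO and 0.0357% ± 0.00152 after MPM-1 (SD, n = 3 libraries each).

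Because these genes moved together, their promoters were read from RefSeq on GRCh38.p14, in windows of 250 bases before to 50 bases after a gene's start. Such windows were found for 9 of the 10 genes (not for NCAPH2), and as SMC2, SMC4 and NCAPD3 have 2 starts each there were 12 windows. Letters known from promoters of mitotic genes were searched on both strands. They were chosen after these promoters were read, so the shares below are a description and not a test. The cell cycle genes homology region (CHR), TTTGAA, was present in 8 of the 12 windows, against 15.2% of all 35116 windows of this length. By gene it was present in 8 of the 9, for which no share over all genes was computed. The CCAAT box, CCAAT, was present in 5 of the 12 windows, against 34.6% of all windows. Both were present in 4 of the 12, against 5.90% of all windows. E2F-type letters (TTCCCGC or TTCGCGC or TTGCCGC or TTGGCGC) were present in 3 of the 12, in SMC4, NCAPG and NCAPD3, against 13% of all windows. A match describes letters and not binding.

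The 250 bases before the start are shown for the 4 windows that held both CHR and CCAAT letters, 5′ to 3′ on the strand of the gene. Capitals mark CHR letters (TTTGAA or its reverse complement TTCAAA) and CCAAT letters (CCAAT or its reverse complement ATTGG).
NCAPD2, chr12:6493852-6494101, plus strand: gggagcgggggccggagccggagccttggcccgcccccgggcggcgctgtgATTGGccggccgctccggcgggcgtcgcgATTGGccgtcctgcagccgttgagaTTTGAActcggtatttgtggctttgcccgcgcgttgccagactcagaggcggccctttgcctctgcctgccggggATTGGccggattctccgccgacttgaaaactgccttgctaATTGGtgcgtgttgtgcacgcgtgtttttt
NCAPD3, chr11:134223968-134224217, minus strand: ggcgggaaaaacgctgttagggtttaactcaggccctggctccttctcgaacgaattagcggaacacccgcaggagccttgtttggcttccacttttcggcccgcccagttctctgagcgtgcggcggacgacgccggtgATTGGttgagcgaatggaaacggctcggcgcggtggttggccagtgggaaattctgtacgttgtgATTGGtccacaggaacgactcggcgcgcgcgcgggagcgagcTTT
TOP2A, chr17:40417897-40418146, minus strand: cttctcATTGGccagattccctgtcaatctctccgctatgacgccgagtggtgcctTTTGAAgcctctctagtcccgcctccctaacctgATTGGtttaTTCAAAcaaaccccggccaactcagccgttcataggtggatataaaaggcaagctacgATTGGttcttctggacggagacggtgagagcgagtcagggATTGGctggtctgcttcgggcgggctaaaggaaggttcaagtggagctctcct
MKI67, chr10:128126424-128126673, minus strand: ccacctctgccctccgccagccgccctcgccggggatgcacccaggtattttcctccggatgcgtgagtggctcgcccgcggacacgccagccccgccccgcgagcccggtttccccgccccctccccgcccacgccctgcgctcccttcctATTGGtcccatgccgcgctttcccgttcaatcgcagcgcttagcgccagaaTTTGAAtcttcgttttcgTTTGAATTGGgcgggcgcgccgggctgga
In NCAPD2, the condensin I gene, 4 reversed CCAAT boxes surrounded a CHR match that began 145 bases before the start. In NCAPD3, its condensin II counterpart, there were 2 reversed CCAAT boxes, and the CHR match began 3 bases before the start, so that only its first letters are shown. TOP2A held 4 reversed CCAAT boxes, the nearest at 53 bases, and 2 CHR matches. MKI67 held 2 CHR matches, at 47 and 29 bases before the start, and the latter shares its last letter with a CCAAT box. NCAPH, the condensin I kleisin, held a CCAAT box at 112 bases and no CHR letters.

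**Figure D1:**
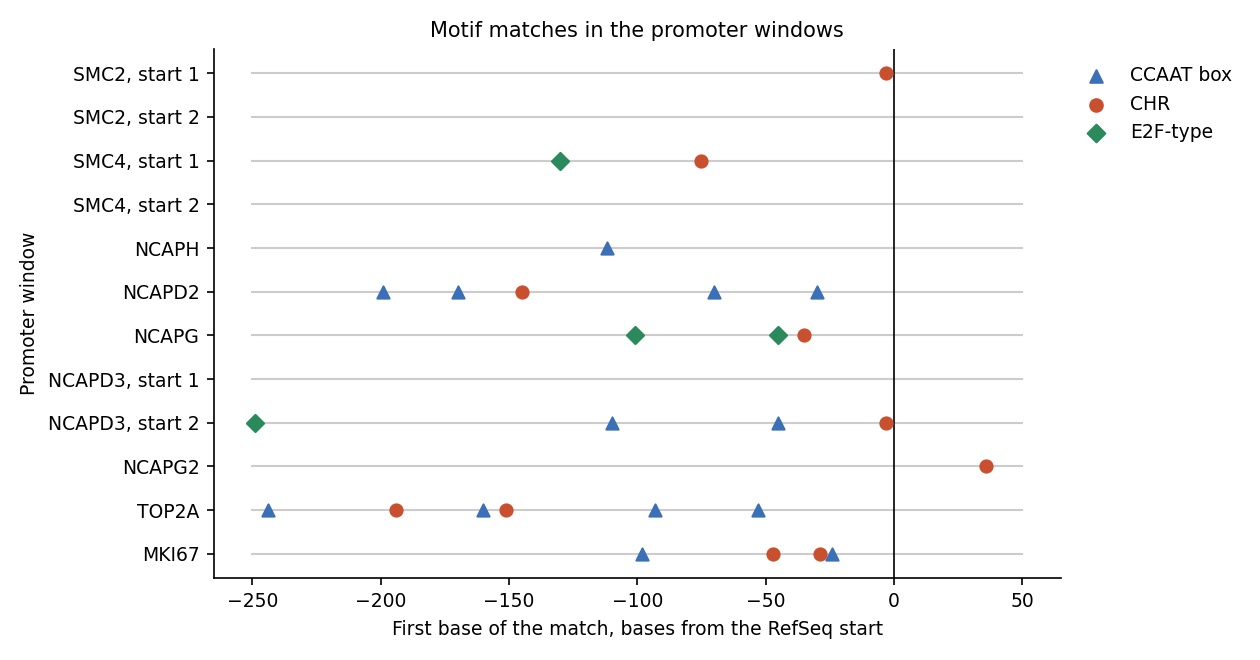
Position of motif matches in the 12 RefSeq promoter windows, with each row a window, the x axis the first base of the match in bases from the start, and the marker the motif. CHR matches lie in 8 windows and within 50 bases of the start in SMC2, NCAPG, NCAPD3, NCAPG2 and MKI67, while CCAAT matches lie in 5.

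Depth and identity of the libraries were examined first. Counts summed to between 31733667 and 40269820 per library, and values are given in CPM, which sets each count against the TMM-scaled total of its library, where a floor of 3 counts equals 0.0695 to 0.0985 CPM. The least abundant of the 10 genes in any library was NCAPH, with 189 counts. Of 10 colon epithelial markers, 9 were in the table, with KRT8 at 3877 CPM or more in every library, and the tenth, CEACAM5, was not listed. In this list 5 genes were higher at an adjusted p-value under 0.01 by edgeR without reaching the fold threshold, namely the keratins KRT18 (log2 fold change 0.89), KRT19 (0.89) and KRT8 (0.42), the adhesion protein CDH1 (0.82) and LGALS4 (0.50), and the list median was 0.42. VIL1 (-0.88) and CDH17 (-0.47) were lower at that level, and CDX2, an intestinal transcription factor, was called lower after MPM-1 (17.9 ± 4.33 CPM, against 82.5 ± 3.51 in DMSO). Of 7 fibroblast markers 2 were listed, COL1A1 (2.97 ± 0.341 CPM in DMSO, 0.705 ± 0.503 after MPM-1, called lower) and PDGFRB (2.19 ± 0.108 and 1.78 ± 0.0806 CPM). Of 7 immune markers 2 were listed, CD68, a lysosomal protein (68.3 ± 15.5 and 145 ± 8.62 CPM, called higher), and CD14 (9.38 ± 0.646 and 3.70 ± 1.49 CPM, called lower), while PTPRC was not, and none of 4 endothelial markers was listed. The part of these markers in the results was not tested. The libraries are bulk RNA, so fewer cells that express these genes and less RNA of these genes per expressing cell cannot be told apart.

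For the comparison of treatments, the quasi-likelihood test of edgeR was run on all 12982 genes with Benjamini-Hochberg adjusted p-values. Calls needed an adjusted p-value under 0.01 together with a log2 fold change of 1 or more in size. Of the 10 genes, 8 were called lower, against 8.75% of all genes tested, and none was called higher, against 5.58%, nor was any higher at an unadjusted p-value under 0.05 or called higher by DESeq2. In all 10, every MPM-1 library lay below every DMSO library, as in 33.3% of all genes. The median log2 fold change was -1.33 for the 10 genes and -0.026 for all genes tested. As the 10 genes were chosen with earlier results known, these comparisons with all genes describe and do not test.

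**Figure D2:**
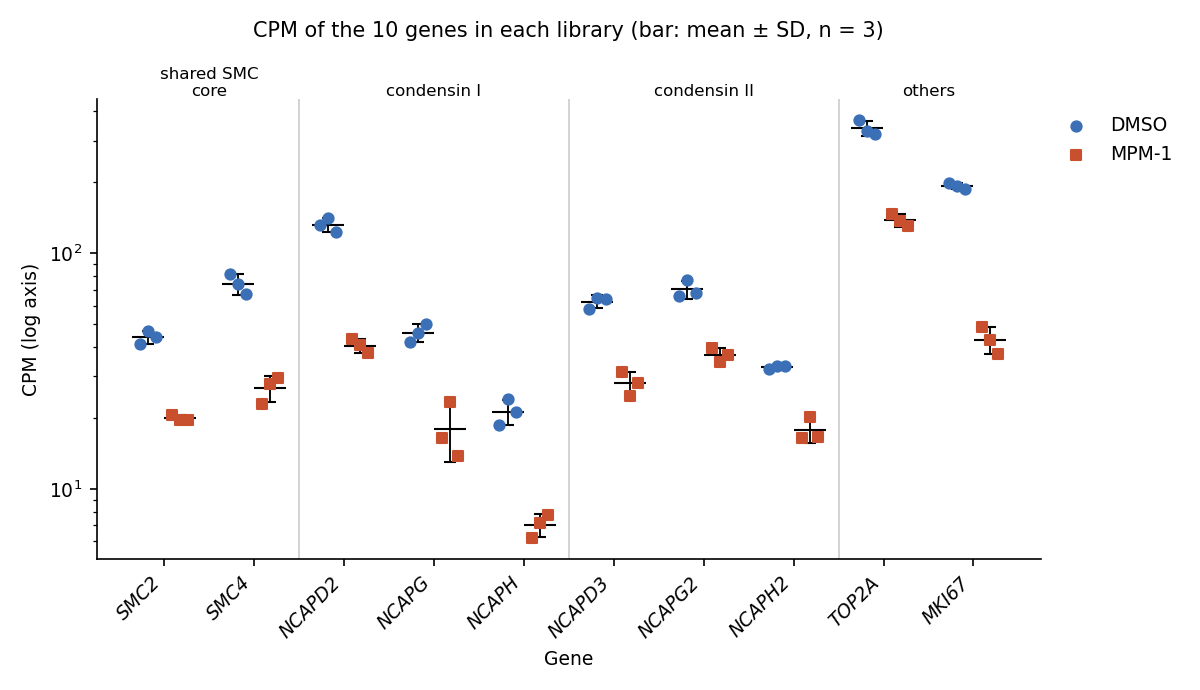
CPM (log axis) of the 10 genes in each library, with points for the 3 DMSO and 3 MPM-1 libraries and bars for mean ± SD (n = 3). No MPM-1 point reaches the DMSO points of the same gene, and the separation is widest in MKI67 (43.0 against 193 CPM) and narrowest in NCAPH2 (17.7 against 33.0 CPM).

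The shared core was considered first, since both complexes need it. SMC2 (ENSG00000136824, chromosome 9, 104094260 to 104141417, GENCODE 29 on GRCh38) had 41.2, 47.0 and 44.0 CPM in the DMSO libraries and 20.6, 19.5 and 19.6 CPM in the MPM-1 libraries. The MPM-1 libraries were nearly alike and lay at 45.3% of the DMSO mean. In log2 terms the difference was -1.14 (SE 0.089, edgeR adjusted p = 8.71e-06). SMC4 (ENSG00000113810, chromosome 3, 160399274 to 160434962), the partner ATPase, had 82.0, 73.9 and 66.9 CPM in DMSO and 22.9, 27.8 and 29.5 CPM after MPM-1. This was 36.0% of the DMSO mean, and in log2 terms the difference was -1.47 (SE 0.12, edgeR adjusted p = 8.71e-06). In FPKM, which is scaled by length, SMC4 was 1.88 ± 0.324 times SMC2 in DMSO and 1.47 ± 0.225 times SMC2 after MPM-1 (SD, n = 3 each). The libraries of the treatments met closely in this ratio, at 1.66 for the lowest DMSO library and 1.65 for the highest MPM-1 library.

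Of genes with counts, SMC4 overlaps TRIM59 over 2518 bases and IFT80 over 607 bases, both on the other strand. Whether counting used strand is not given in the sources used here. Overlapping genes without counts include AC079594.2, a protein-coding gene on the other strand that spans all 35689 bases of SMC4. The microRNA genes MIR15B and MIR16-2, on the same strand, also have no counts. TRIM59 counts were 36, 1385 and 646 with DMSO, then 306, 242 and 19 with MPM-1, a spread within treatments that SMC4 did not show (2703, 3191 and 2666 against 698, 855 and 989 counts). IFT80 had 671 to 1066 counts in DMSO and 571 to 755 after MPM-1. The part of such overlaps in the SMC4 value was not tested.

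Of the condensin I subunits, NCAPD2 was the most abundant. NCAPD2 (ENSG00000010292, chromosome 12, 6493356 to 6531955), a HEAT-repeat subunit, had 132, 142 and 123 CPM in the DMSO libraries and 43.2, 40.6 and 37.9 CPM in the MPM-1 libraries. Treated libraries were at 30.7% of the DMSO mean, the lowest share among the condensin genes. This is a log2 fold change of -1.70 (SE 0.087, edgeR adjusted p = 7.80e-07). NCAPD2 overlaps MRPL51 on the other strand over 486 bases, which had 3928 to 4876 counts in DMSO and 2770 to 2932 after MPM-1.

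NCAPH (ENSG00000121152, chromosome 2, 96335787 to 96373845), the kleisin that closes the condensin I ring, had 18.7, 24.0 and 21.2 CPM in DMSO and 6.20, 7.15 and 7.74 CPM after MPM-1. The groups were far apart, and the treated mean was 33.0% of the DMSO mean. As a log2 fold change this was -1.60 (SE 0.15, edgeR adjusted p = 2.53e-05). The FPKM of NCAPH does not track its count in every library. After scaling for the library, the ratio of count to FPKM was 0.755 of the gene's median in DMSO replicate 3. It was 0.945 in MPM-1 replicate 1 and 1.10 in MPM-1 replicate 2. In the other 9 genes it was between 0.964 and 1.06 in all libraries. The FPKM levels and shares given below include these values of NCAPH.

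NCAPG (ENSG00000109805, chromosome 4, 17810902 to 17844862), the other HEAT-repeat subunit of condensin I, had 42.1, 45.9 and 49.9 CPM in DMSO and 16.4, 23.4 and 13.8 CPM after MPM-1. MPM-1 replicate 2 stood above the other treated libraries, yet below every DMSO library. Its log2 fold change, -1.36 (SE 0.17, edgeR adjusted p = 0.000148), was the least precise of the 10 and became -1.58 without that library. It was -1.29 without MPM-1 replicate 1 and -1.19 without MPM-1 replicate 3. NCAPG overlaps LCORL on the other strand over 3664 bases, which had 1140 to 1655 counts in DMSO and 1322 to 1604 after MPM-1.

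Among the condensin II subunits, NCAPD3 (ENSG00000151503, chromosome 11, 134150119 to 134225454), the HEAT-repeat counterpart of NCAPD2, had 57.8, 64.8 and 64.2 CPM in DMSO and 31.2, 24.8 and 28.2 CPM after MPM-1. It was the only subunit particular to condensin II that was called, at -1.15 on the log2 scale (SE 0.10, edgeR adjusted p = 1.74e-05). NCAPD3 overlaps VPS26B on the other strand over 810 bases, which had 1556 to 2001 counts in DMSO and 946 to 1111 after MPM-1. Overlapping genes without counts include AP001775.2 (7343 bases) and JAM3 (1883 bases), both on the other strand.

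NCAPG2 (ENSG00000146918, chromosome 7, 158631311 to 158704829), the counterpart of NCAPG, had 65.7, 77.2 and 68.1 CPM in DMSO and 39.7, 34.6 and 37.1 CPM after MPM-1. NCAPH2 (ENSG00000025770, chromosome 22, 50508216 to 50523472), the condensin II kleisin, had 32.2, 33.3 and 33.4 CPM in DMSO and 16.5, 20.1 and 16.6 CPM after MPM-1. Neither gene's groups overlapped, and the treated means were 52.8% and 53.8% of the DMSO means. Their log2 fold changes were -0.92 (SE 0.092, edgeR adjusted p = 3.44e-05) and -0.89 (SE 0.11, edgeR adjusted p = 0.000105), so both passed on the adjusted p-value and missed the fold threshold. Scaling by library size alone, where the median of all genes was -0.18, brought both past it (-1.07 and -1.04).

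**Figure D3:**
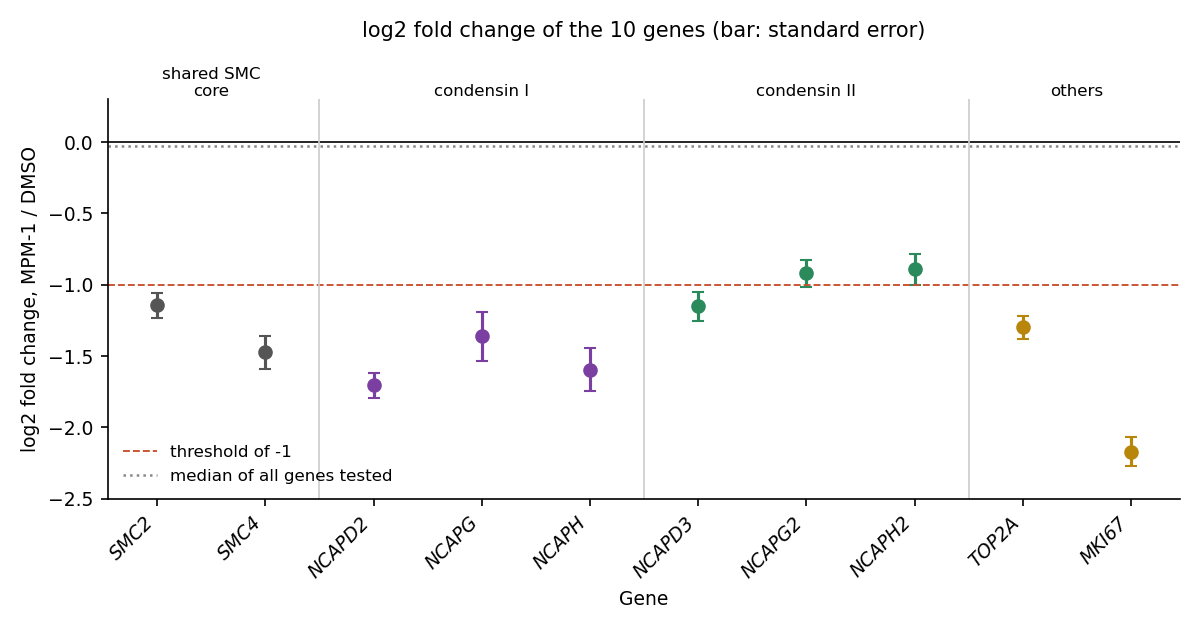
log2 fold change of MPM-1 against DMSO for the 10 genes (points) with its standard error (bars), the dashed line at the threshold of -1 and the dotted line at the median of all genes. The condensin I points lie between -1.70 and -1.36 and the condensin II points between -1.15 and -0.89.

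Condensin I and condensin II were then compared inside each library, as the log2 ratio of the counts of counterpart subunits, which does not depend on how libraries are scaled. The ratio of NCAPD2 to NCAPD3 was 1.19, 1.13 and 0.94 in the DMSO libraries and 0.47, 0.71 and 0.43 in the MPM-1 libraries. The groups did not overlap, and the ratio was lower by 0.55 after MPM-1 (mpm1 minus dmso -0.55, SE 0.12). The ratio of NCAPH to NCAPH2 was -0.79, -0.47 and -0.65 in DMSO and -1.41, -1.49 and -1.10 after MPM-1. Here too the groups did not overlap, with a difference of -0.70 (SE 0.15). The ratio of NCAPG to NCAPG2 was -0.64, -0.75 and -0.45 in DMSO and -1.27, -0.56 and -1.42 after MPM-1. In this pair MPM-1 replicate 2 lay among the DMSO libraries, and the difference was -0.47 (SE 0.28). It was -0.73 without that library, -0.38 without MPM-1 replicate 1 and -0.30 without MPM-1 replicate 3.

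An exact two-sided permutation test of the 3 ratios gave p = 0.1 for the D pair and the H pair, the smallest that 3 against 3 libraries can give, and p = 0.3 for the G pair. After Benjamini-Hochberg adjustment over the 3 pairs these exact values were 0.15, 0.15 and 0.3, so none could pass 0.05 in this exact test. The direction of all 3 differences was the same with FPKM in place of counts and when any 1 library was dropped.

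Levels of different genes were compared in FPKM, because counts grow with transcript length. In DMSO the order was TOP2A (60.2 ± 3.13 FPKM), NCAPD2 (24.3 ± 1.86), NCAPG2 (18.5 ± 1.71), NCAPH2 (16.8 ± 0.589), MKI67 (15.7 ± 0.422), SMC4 (14.1 ± 1.39), NCAPD3 (13.0 ± 0.927), NCAPG (10.1 ± 1.00), NCAPH (8.93 ± 1.91) and SMC2 (7.57 ± 0.683 FPKM; SD, n = 3). The ranges of neighbours overlapped for NCAPG2 and NCAPH2, for MKI67, SMC4 and NCAPD3 in turn, and for NCAPG, NCAPH and SMC2 in turn. After MPM-1, TOP2A was still the highest (22.0 ± 1.16 FPKM), and NCAPG2 (8.67 ± 0.687) and NCAPH2 (8.28 ± 1.02), whose ranges overlapped, stood above NCAPD2 (6.71 ± 0.405). NCAPD2 thus went from the highest of the condensin genes to below both of those condensin II subunits. The lowest after MPM-1 was NCAPH (2.37 ± 0.236 FPKM), just under SMC2 (3.06 ± 0.0574) and MKI67 (3.11 ± 0.377).

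Summed over the 3 subunits particular to each complex, condensin I held 46.8%, 47.1% and 47.8% of the FPKM of the 6 subunits in the DMSO libraries. In the MPM-1 libraries it held 34.9%, 38.3% and 34.7%. Condensin I subunits summed to 43.3 ± 3.19 FPKM in DMSO and 12.6 ± 1.12 FPKM after MPM-1, and condensin II subunits to 48.3 ± 3.11 and 22.4 ± 0.644 FPKM (SD, n = 3 each). The share describes transcripts and says nothing of assembled complexes.

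**Figure D4:**
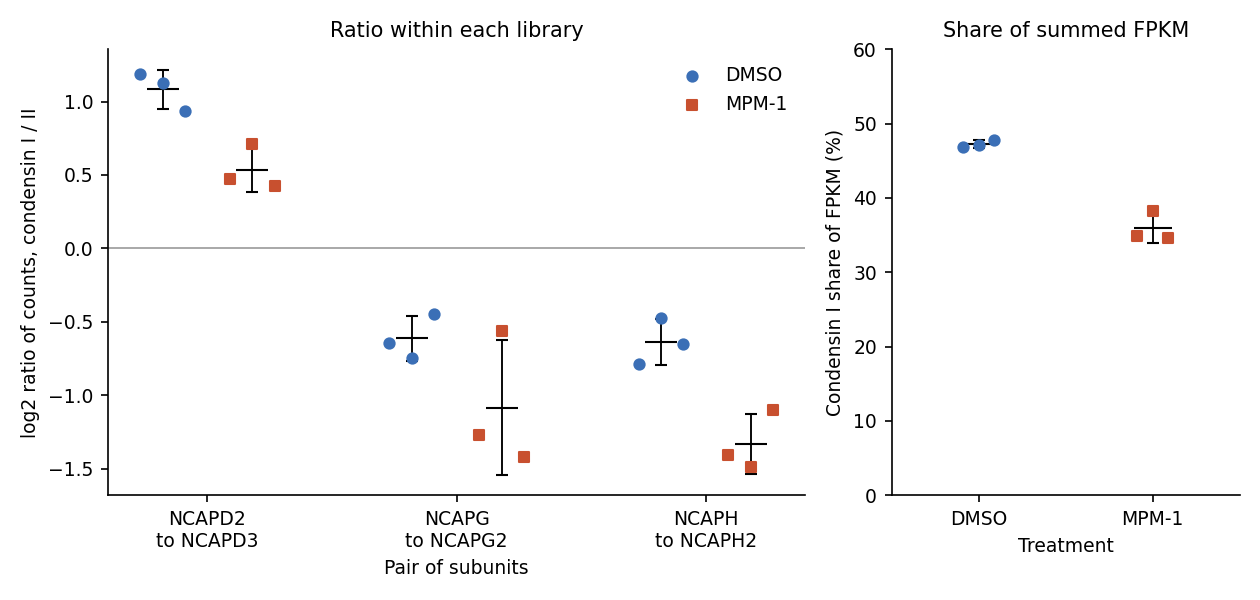
Left, log2 ratio of counts of each condensin I subunit to its condensin II counterpart, and right, share of condensin I in the summed FPKM of the 6 subunits (%), in each library, with bars for mean ± SD (n = 3). DMSO and MPM-1 libraries are apart in the NCAPD2 and NCAPH pairs and in the share (46.8% to 47.8% against 34.7% to 38.3%), and overlap in the NCAPG pair.

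TOP2A (ENSG00000131747, chromosome 17, 40388516 to 40417950) was the most abundant of the 10 genes, with 367, 331 and 321 CPM in DMSO and 147, 137 and 130 CPM after MPM-1. The highest treated library was far below the lowest control, and the log2 fold change was -1.30 (SE 0.083, edgeR adjusted p = 2.87e-06). TOP2B, the form of the enzyme that resting cells also use, had 143, 149 and 141 CPM in DMSO and 111, 133 and 120 CPM after MPM-1. The groups did not overlap, but its log2 fold change of -0.25 (SE 0.083, edgeR adjusted p = 0.0259) did not pass.

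MKI67 (ENSG00000148773, chromosome 10, 128096659 to 128126385) had 199, 194 and 188 CPM in DMSO and 48.6, 43.0 and 37.4 CPM after MPM-1. Its treated mean was the lowest share of control among the 10 genes, and the log2 fold change was -2.17 (SE 0.10, edgeR adjusted p = 5.66e-07). Only 1.79% of all genes had a lower log2 fold change than MKI67, against 3.50% for NCAPD2, 6.41% for TOP2A and 12.0% for NCAPH2.

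Other genes of chromosome structure were described from 5 lists written from general knowledge, in the same edgeR fit. Of 17 genes for cohesin, the ring that holds sister chromatids together, and its regulators, 5 were called lower and none higher, with a median log2 fold change of -0.33. Over all genes tested, 8.75% were called lower and 5.58% higher. The largest falls were in ESPL1 (separase, the protease that opens the ring, log2 fold change -1.50), ESCO2 (an acetyltransferase for cohesion in S phase, -1.38) and PTTG1 (securin, the inhibitor of separase, -1.36). The ring subunits, singled out after their values were seen, had smaller differences: SMC1A -0.66, RAD21 -0.59 and SMC3 -0.25, of which SMC3 did not pass on the adjusted p-value (0.0195, edgeR). The 8 condensin subunits lay from -1.70 to -0.89, a difference between lists that was not tested. Of the 17, 5 had positive log2 fold changes, up to 0.28, and 2 of these had an unadjusted p-value under 0.05, against 29.8% of all genes. At an adjusted p-value under 0.01 (edgeR), 8 of the 17 were lower, against 20.7% of all genes, and none was higher, against 20.4%.

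In the SMC5/6 complex, the third SMC complex and a factor of DNA repair, 1 of 8 genes was called lower, against 8.75% of all genes. None was called higher, against 5.58% (list median -0.12). The gene called lower was SLF1, which brings the complex to damaged DNA (log2 fold change -1.31), and NSMCE4A was lower at -0.65 (edgeR adjusted p = 0.00183). SMC5, a core subunit, was higher after MPM-1 at an adjusted p-value of 0.00286 (edgeR), with a log2 fold change of 0.40. It was the 1 gene of the list higher at an unadjusted p-value under 0.05, against 29.8% of all genes. SMC5 and NSMCE4A were named after their values were seen. Of 10 other topoisomerases and partners, 2 were called lower, against 8.75% of all genes, and none higher, against 5.58% (median -0.21). Those called were RMI1 (-1.28) and RMI2 (-1.27), subunits that work with TOP3A, itself at -0.17 with an adjusted p-value of 0.354 (edgeR; TOP3A was named after its value was seen). In this list 4 genes were lower at an adjusted p-value under 0.01 (edgeR), against 20.7% of all genes, and 1 was higher, against 20.4%. At an unadjusted p-value under 0.05, 1 was higher, against 29.8%.

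Of 14 condensin regulators and chromosome scaffold genes, which include the kinases that phosphorylate condensin in mitosis, 8 were called lower and none higher, with a median of -1.05. The largest falls were in PLK1 (polo-like kinase, from 118 ± 7.72 to 29.1 ± 1.66 CPM, log2 fold change -2.02), CCNB1 (cyclin B1, from 233 ± 13.6 to 58.9 ± 9.05 CPM, -1.99) and BIRC5 (survivin, of the Aurora B complex, from 111 ± 0.424 to 28.5 ± 3.11 CPM, -1.96; SD, n = 3 each). In this list 2 genes were higher at an unadjusted p-value under 0.05, against 29.8% of all genes. Among them was CSNK2A1, a catalytic subunit of casein kinase 2 (0.83, adjusted p = 2.05e-05, edgeR), named after its value was seen. Of 12 genes of the chromosome periphery and partners of Ki-67, 1 was called lower and none higher (median -0.25). At an adjusted p-value under 0.01 (edgeR), 6 were lower, against 20.7% of all genes, and 2 were higher, against 20.4%. At an unadjusted p-value under 0.05, 2 were higher, against 29.8%. The gene called lower was CDCA2 (Repo-Man, which brings a phosphatase to chromosomes), with 23.9 ± 0.56 CPM in DMSO and 9.59 ± 1.53 after MPM-1, or -1.32 in log2 terms. DESeq2 called none higher in any of the 5 lists. The edgeR counts stand against 8.75% of all genes called lower and 5.58% called higher.

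**Figure D5:**
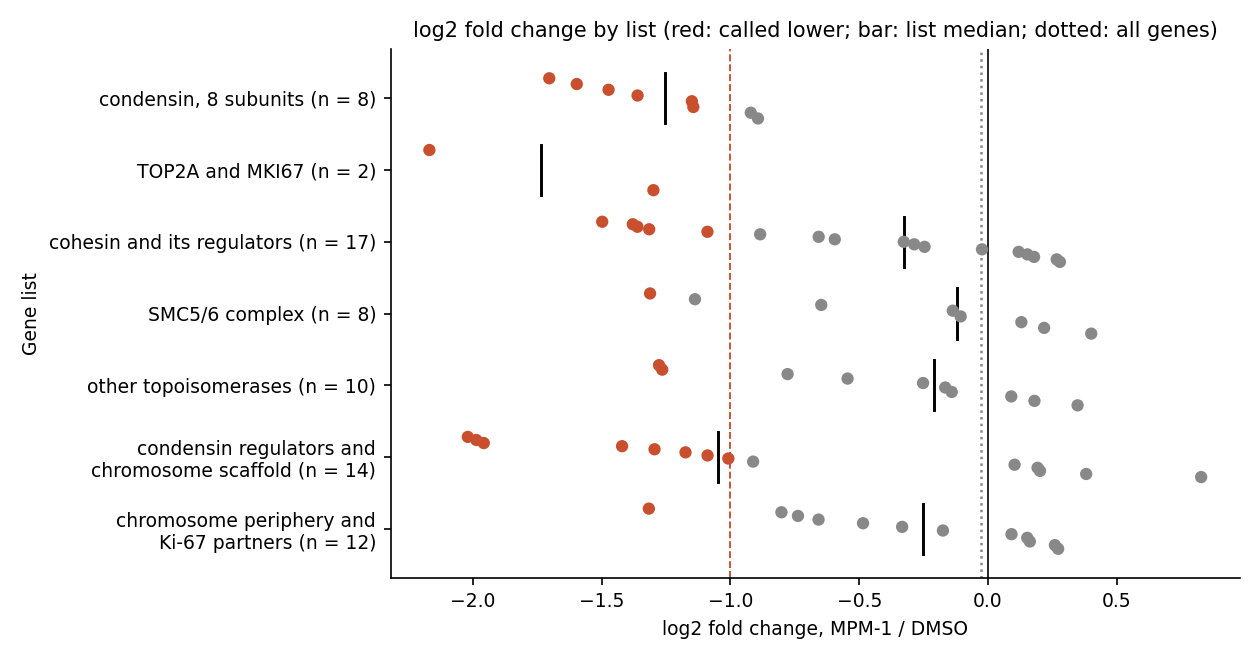
log2 fold change of each gene by list, with called genes in red, the others in grey, a bar at the list median, the dashed line at -1 and the dotted line at the median of all genes. All 8 condensin subunits lie at -0.89 or lower, whereas the cohesin list reaches from -1.50 to 0.28.

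The genes most like the 10 in pattern were found from the root-mean-square difference of centred log2 CPM from the mean profile of the 10 genes, over 6 libraries. The 10 nearest, in order, were IRF8, CENPW, PCOLCE, PLBD1, KIF11, ARRB1, ANLN, TNFRSF19, NewGene_7829 and PTTG1, with differences between 0.035 and 0.072. Their log2 fold changes lay between -1.47 and -1.33. CENPW (a centromere protein), KIF11 (a spindle kinesin), ANLN (a protein of the cleavage furrow) and PTTG1 belong to mitosis. The others, among them the nearest, IRF8, were not assigned to mitosis, and the share of mitotic genes over all genes was not computed. Of the 10 genes themselves, TOP2A was nearest to their mean (0.093) and MKI67 farthest (0.41), and with 2 groups of libraries this likeness mostly measures the size of the fall.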

How the data were processed

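Expression was measured by RNA sequencing in 6 libraries of SW480 cells, prepared with a kit for mRNA. The authors deposited 1 table holding raw counts and FPKM per gene and library, and the authors also deposited the log2 fold changes and FDR (adjusted p-values) from a comparison of theirs, which were not used here. The submitters' processing notes name HISAT2, DESeq2 and the build mm10. The table holds no mouse identifier, and 12106 of its 12127 Ensembl identifiers were matched in a table of human gene names, so positions were taken from GENCODE 29 on GRCh38. The counting tool, its use of strand and the filter on genes are not given in the sources used here. Every gene had at least 115 counts in total.

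Counts were analysed with R 4.3.3, edgeR 4.0.16 (TMM scaling, quasi-likelihood test, all 6 libraries, no covariates), limma 3.58.1 and DESeq2 1.42.0. The filter of edgeR removed no gene. Standard errors were derived from the F statistic and include the spread between libraries. Ratios of counterpart genes used counts plus 0.5. The test was tried on simulated data. Floors of 3 counts cover counting error only.

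The members and lists were chosen with earlier results of these data known. Genes named were the 10 members, TOP2B, up to 3 largest called falls and rises per list, and the 10 nearest profiles. SMC1A, RAD21, SMC3, TOP3A, SMC5, NSMCE4A and CSNK2A1 fall outside this rule and were named after their values were seen, and marker and overlapping genes were named as checks. Motifs were chosen after the promoters were read. Alternatives were other scalings, filters, thresholds and tests, a replicate block, each library left out, and limma on log2(FPKM + pseudocount), which understates changes of low genes.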

Additional observations from a re-analysis of the deposited data

How the results depend on the processing

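All 10 genes kept a negative sign and an adjusted p-value under 0.01 in each of the 17 alternative fits. The fit with no filter repeated the main fit, since the filter of edgeR removed no gene. With each library left out, the number called lower was 8. The calls that changed were those of NCAPH2 and NCAPG2, which crossed the fold threshold with scaling by library size alone (-1.04 and -1.07), with limma on log2(FPKM + 0.1) with and without the filter (-1.02 and -1.08) and with a pseudocount of 0.01 (-1.03 and -1.09), and NCAPG2 also with a pseudocount of 1 (-1.01). The median log2 fold changes of core, condensin I and condensin II moved by more than 1 SD between libraries with library size alone (-1.46, -1.75 and -1.07), with FPKM + 0.1 (-1.46, -1.84 and -1.08) and with FPKM + 0.01 (-1.48, -1.86 and -1.09), and that of condensin II with FPKM + 1 (-1.01). Condensin I stayed below condensin II in all of these, with a difference of medians between -0.76 and -0.53. The median of all genes was -0.15 with FPKM + 0.1.

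Over all genes, limma on FPKM called 445, 351 and 454 genes higher with pseudocounts of 0.1, 1 and 0.01, and 716 lower with 1. Calling at 0.05 with no limit on fold gave 3740 lower and 3596 higher genes. In the lists it gave 9 lower and 2 higher (cohesin), 3 and 1 (SMC5/6), 5 and 1 (topoisomerases), 6 lower and 2 higher (periphery), and 2 higher (regulators). With FPKM + 1 the numbers called lower were 3 (cohesin), 0 (SMC5/6) and 1 (topoisomerases), and the 4 fits on FPKM called 1 regulator higher. For SMC5/6, 2 were called lower with library size alone, DESeq2's test or the replicate block, and 1 to 2 with a library left out (2 without MPM-1 replicate 2). The number of cohesin genes called lower was 4 with the replicate block and without DMSO replicate 2 or 3 or MPM-1 replicate 2 or 3, and that of regulators was 7 with DESeq2's test or size factors, with FPKM + 1, and without DMSO replicate 2 or MPM-1 replicate 3. The cause of these shifts was not tested.

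Correlations of deviations were 0.021, 0.11 and -0.074 for libraries of the same number, and between -0.13 and 0.11 for different numbers. No pairing by replicate number was thus seen, though 3 libraries a group cannot exclude it. With the replicate number as a block, NCAPD2 was at -1.70, NCAPG at -1.39, and no call among the 10 genes changed. Leaving out a library moved the NCAPG to NCAPG2 difference between -0.73 and -0.30. With 3 libraries a group, an exact permutation test of a ratio cannot pass 0.05.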
